A study of Mus musculus with 4 samples.

Results

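The genes encoding the apelin receptor Aplnr and its peptide ligands Apln and Apela were examined in mouse embryonic stem cells driven towards mesoderm. They were taken by gene symbol, and all 3 rows were found among the 51826 genes of the expression table. The 2 groups were Stk40-/- cells, which lack the pseudokinase gene Stk40, and wild-type (WT) cells, with 2 libraries each, all on a C57BL/6 background and all collected at day 3. Cells of both genotypes had been kept on feeder fibroblasts, were passaged off them, and then received BMP4 at 10 ng/ml for 2 days, followed for 1 day by 1 uM of CHIR99021, an inhibitor of GSK3, and 0.5% DMSO. The labels call the cells mesoderm-like. They do not say how many clones or lines gave rise to either genotype, nor whether the libraries of a genotype were grown separately, so each p-value reflects the variation among these 4 libraries, which may be technical. Expression is in TPM, which corrects read numbers for the length of each transcript and the total of its library, so levels of different genes can be set side by side, but the sequencing depth is unknown.

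The apelin receptor, also called APJ, is a class A G protein-coupled receptor that signals mainly through inhibitory G proteins and beta-arrestins. Apln encodes apelin, and Apela encodes a second peptide agonist, also known as Elabela or Toddler. In zebrafish, Apela and the receptor guide the movement of mesendodermal cells during gastrulation, and in the mouse the receptor is found in nascent mesoderm and later in the developing heart and vessels, while Apela is transcribed in pluripotent cells.

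On GRCm38, Apln (ENSMUSG00000037010.7) lies on chromosome X from 48025146 to 48034853 on the minus strand, with 1 annotated transcript of 3 exons. Apela (ENSMUSG00000079042.10) lies on chromosome 8 from 65028417 to 65037336 on the minus strand, with 2 transcripts of 3 and 4 exons. Aplnr (ENSMUSG00000044338.9) lies on chromosome 2 from 85136225 to 85139923 on the plus strand. Its main transcript is a single exon of 3699 bases, of which 1131 are coding, and a second annotated transcript is 313 bases long. The 250 bases upstream of the RefSeq transcription start are shown for both ligand genes because their values went in opposite directions. Windows were chrX:48034854-48035103 for Apln and chr8:65037337-65037586 for Apela on GRCm38.p6, each printed 5′ to 3′ on the minus strand. Capitals mark GGGCGG, a GC box, in Apln, and TTTGCAT or its reverse complement, the core of the octamer bound by POU factors, in Apela.
Apln: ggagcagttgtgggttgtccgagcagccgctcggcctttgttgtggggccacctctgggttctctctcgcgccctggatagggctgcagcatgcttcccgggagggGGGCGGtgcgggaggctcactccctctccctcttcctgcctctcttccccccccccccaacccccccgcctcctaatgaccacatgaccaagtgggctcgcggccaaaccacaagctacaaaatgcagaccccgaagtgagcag
Apela: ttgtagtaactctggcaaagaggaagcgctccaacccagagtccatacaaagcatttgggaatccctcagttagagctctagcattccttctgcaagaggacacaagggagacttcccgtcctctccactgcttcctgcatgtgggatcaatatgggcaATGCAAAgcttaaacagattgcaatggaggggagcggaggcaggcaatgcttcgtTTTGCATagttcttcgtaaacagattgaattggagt
The Apln window had a GC content of 65.2% with 12 CpG dinucleotides, and the Apela window had 48.0% with 5, against medians of 52.4% and 6 over 32817 promoter windows of the same length. Both strands were searched for motifs of factors active in this protocol, and each of the following gave 0 matches in either window. The T-box motif AGGTGT is held by 11.8% of all windows. The motif of TCF and LEF factors, CTTTGAT, is held by 3.21% of them. For AGATAAG, bound by the zinc finger factors of the Gata genes, the share is 2.74%. The AP-1 motif TGANTCA occurs in 6.75% of windows. The SMAD motif CAGACA occurs in 17.1%. The GC box and the octamer core were added to the search after the sequences had been read, so their matches are a description. The GC box had 1 match in the Apln window, starting at position -144 from the transcription start, and 32.7% of windows hold it. The octamer core had 2 matches in the Apela window, starting at -91 and -36, and 4.13% of windows hold it at least once. Each window held matches of a single kind of motif, so matches of different motifs could not overlap.

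Ligand and receptor transcripts did not move as a unit. The receptor Aplnr and the ligand Apln were lower in both Stk40-/- libraries than in both WT libraries, and the ligand Apela was higher in both. None of the 3 genes passed the test of limma, a linear model fitted across all genes, at an adjusted p under 0.05. In that fit 0 of 15739 tested genes were called higher and 0 lower (0.00% each), and 1730 (11.0%) had an unadjusted p under 0.05. Differences are given as Stk40-/- minus WT in log2(TPM + 1), a scale that makes the change of weakly expressed genes look smaller, and their median over all tested genes was 0.065. Both Stk40-/- libraries lay below both WT libraries in 16.6% of tested genes and above them in 27.5%, and the 2 lower members and 1 higher member are to be read against those shares. In bulk RNA, fewer cells of a type and less RNA per cell cannot be told apart.

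The receptor showed the largest difference of the 3. Aplnr was at 1.88 and 0.753 TPM in the Stk40-/- libraries, against 20.3 and 5.26 TPM in the WT libraries. The groups did not overlap, and the lowest WT library was 2.80 times the highest Stk40-/- library. Aplnr averaged 1.32 ± 0.795 TPM in Stk40-/- cells and 12.8 ± 10.6 TPM in WT cells (SD, n = 2 each). Its log2 difference was -2.36 (SE 0.69), with a limma unadjusted p = 0.0235 and adjusted p = 0.406. This was the 79th lowest value among 15739 tested genes. WT library 1 was 3.86 times WT library 2, and without it the log2 difference was -1.48, against -3.25 without WT library 2. In rank among protein-coding genes, from the highest TPM down, Aplnr stood at 11834 and 13169 in the Stk40-/- libraries and at 6118 and 9864 in the WT libraries.

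Apln, which encodes the apelin precursor, was lower by less and with closer replicates. Its level was 10.1 and 7.37 TPM in the Stk40-/- libraries, against 17.0 and 14.6 TPM in the WT libraries. The groups were separated by a ratio of 1.45 between the lowest WT and the highest Stk40-/- library. The means were 8.73 ± 1.93 TPM in Stk40-/- cells and 15.8 ± 1.7 TPM in WT cells (SD, n = 2 each), with a log2 difference of -0.80 (SE 0.21, limma unadjusted p = 0.0165, adjusted p = 0.400). Between replicates the log2 difference from library 1 to library 2 was -0.41 in Stk40-/- cells and -0.21 in WT cells, both smaller than the difference between genotypes.

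Apela was the most abundant of the 3 in every library. It was at 125 and 174 TPM in the Stk40-/- libraries, against 91.7 and 118 TPM in the WT libraries. The groups did not overlap, but the lowest Stk40-/- library was only 1.06 times the highest WT library. Apela averaged 149.8 ± 34.4 TPM in Stk40-/- cells and 105 ± 18.5 TPM in WT cells (SD, n = 2 each). The log2 difference was 0.50 (SE 0.21, limma unadjusted p = 0.0736, adjusted p = 0.491), about the size of the replicate differences of 0.47 in Stk40-/- cells and 0.36 in WT cells. It was 0.27 without Stk40-/- library 2 and 0.32 without WT library 1, so each of these libraries moved it by over 1.5 times. Its rank among protein-coding genes was 1148 and 751 in the Stk40-/- libraries and 1612 and 1126 in the WT libraries. The span of Apela overlaps that of the gene Gm45886, which was listed at 9.46 and 0 TPM in the Stk40-/- libraries and at 0 in both WT libraries. With both genes summed, an alternative chosen after seeing the data, the log2 difference was 0.56 (limma adjusted p = 0.442).

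**Figure D1:**
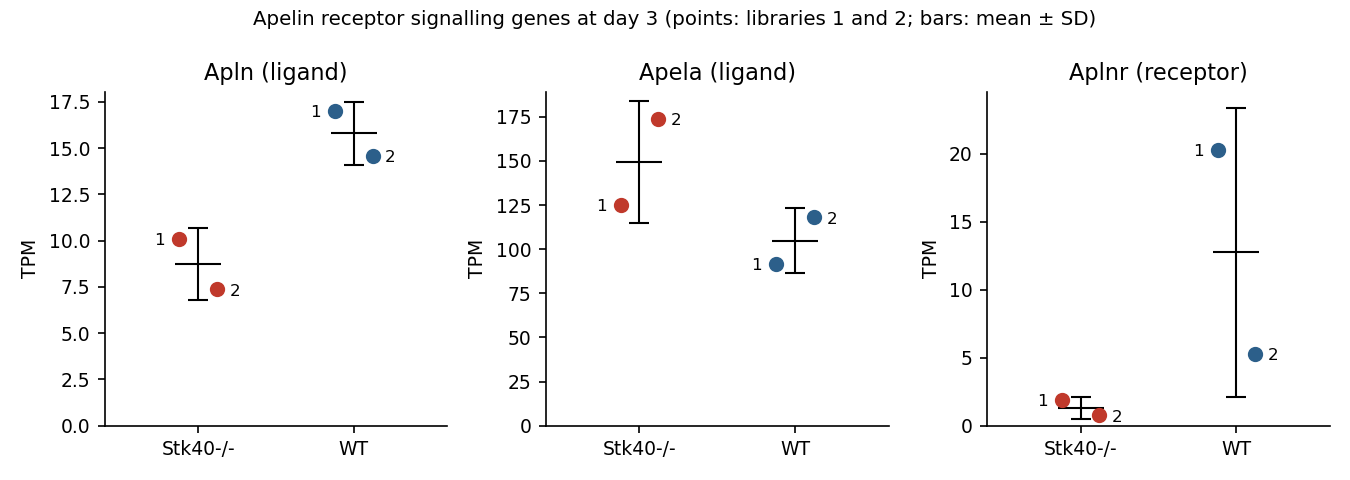
TPM (vertical axes, each from 0) of Apln, Apela and Aplnr in Stk40-/- and WT cells, with points for libraries 1 and 2 and bars for the mean ± SD of 2 libraries. Aplnr lies at or under 1.88 TPM in Stk40-/- cells and is spread from 5.26 to 20.3 TPM in WT cells, Apln is lower in Stk40-/- cells, and Apela is higher.

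Within each library the order of the ligands was the same, and the receptor changed place. Apela exceeded Apln 12.4 and 23.6 times in the Stk40-/- libraries and 5.39 and 8.06 times in the WT libraries. Aplnr was the lowest of the 3 in both Stk40-/- libraries and in WT library 2, whereas in WT library 1 it stood above Apln, with an Apln to Aplnr ratio of 0.838. The spread of Aplnr in WT cells covers the level of Apln there, so the order of these neighbours in WT cells is not distinguished.

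The balance of ligand to receptor transcripts was shifted towards ligand in Stk40-/- cells, without overlap of the groups. Apela supplied 92.6% and 95.9% of the summed ligand TPM in the Stk40-/- libraries, against 84.3% and 89.0% in the WT libraries. The summed ligand TPM was 136 and 181 in the Stk40-/- libraries and 109 and 133 in the WT libraries, a smaller separation than that of the receptor. Per TPM of Aplnr there were 72.2 and 241 TPM of ligand in the Stk40-/- libraries, against 5.35 and 25.2 in the WT libraries. The log2 of this ratio averaged 7.04 ± 1.23 in Stk40-/- cells and 3.54 ± 1.58 in WT cells, a difference of 3.51 (SD, n = 2 each; two-sided exact permutation p = 0.333, the smallest that 2 against 2 libraries can give). When each library in turn was omitted, the difference in log2 ratio lay between 2.39 and 4.62.

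**Figure D2:**
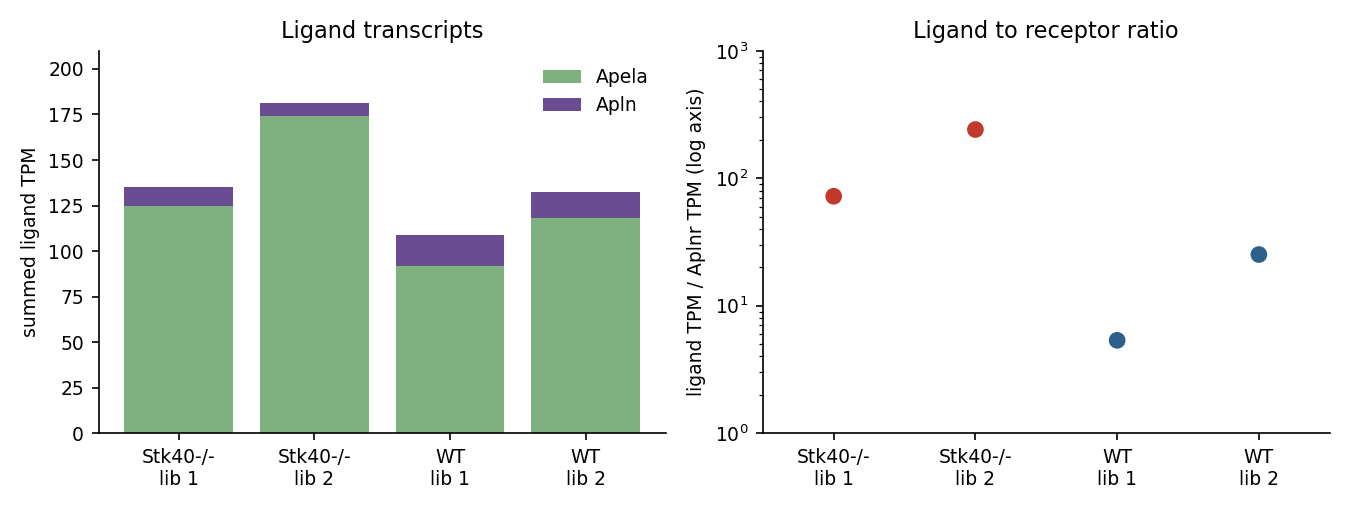
Left, summed ligand TPM split into Apela and Apln in each library; right, ligand TPM divided by Aplnr TPM on a log axis. Apela makes up most of the ligand transcripts in all 4 libraries, and the ratio is 72.2 and 241 in the Stk40-/- libraries and 5.35 and 25.2 in the WT libraries.

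The genes whose values over the 4 libraries were most like those of each member were sought among 10096 protein-coding genes averaging 5 TPM or more, by the root mean square difference between log2(TPM + 1) values centred on each gene's mean. Nearest to Aplnr was Mixl1, a homeobox gene of the primitive streak (difference 0.194), at 2.06 and 1.71 TPM in the Stk40-/- libraries and 24.7 and 6.77 TPM in the WT libraries. The next were Wnt5a, a Wnt ligand gene (0.242), and Sprr2a3 (0.283), a member of the small proline-rich family of near-identical copies, whose values are less certain for that reason. Like Aplnr, all 3 were highest in WT library 1, which follows from how they were chosen. Apln was nearest to Cyba (0.054), which encodes a subunit of the NADPH oxidase, Hint3 (0.067) and Dolk (0.069), the dolichol kinase gene, none of which was in the lists of streak or signalling genes. Apela was nearest to Tprn (0.006), Arhgef3 (0.028) and Urah (0.032). With 4 libraries these are descriptions, and many genes share such a profile.

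**Figure D3:**
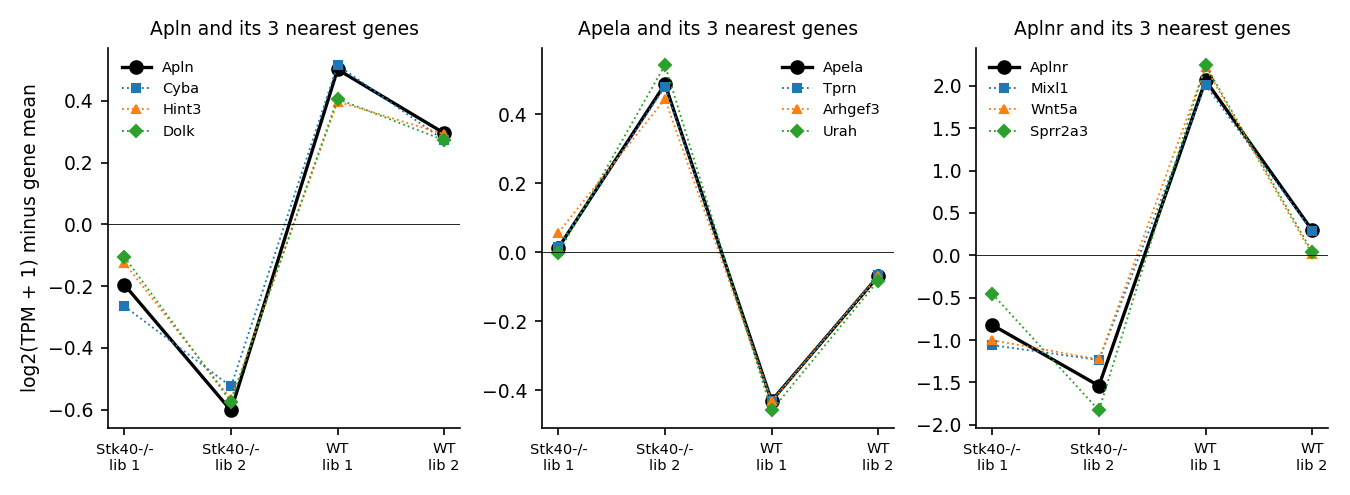
Log2(TPM + 1) minus the gene's own mean over the 4 libraries (vertical axis) for each member, in black, and the 3 genes nearest to it. Aplnr, Mixl1, Wnt5a and Sprr2a3 peak in WT library 1, and Apela and its neighbours peak in Stk40-/- library 2.

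The tested genes of the streak and nascent mesoderm, the tissue where Aplnr is known to be transcribed, were lower with it. Of 20 listed genes 11 were tested, all 11 had negative log2 differences (41.4% of all tested genes were negative and 58.6% positive), 10 had both Stk40-/- libraries below both WT libraries (16.6% of all tested genes) and 0 passed limma over all genes. Their median log2 difference was -1.31, against 0.065 over all tested genes. Evx1 and Msgn1, under 1 TPM in both Stk40-/- libraries, passed the filter only through the WT libraries. The negative direction of these genes was thus set by the filter, and both are included in the counts and the median. The summed TPM of the list was 543 and 384 in the Stk40-/- libraries and 1528 and 838 in the WT libraries, most of it from T, the brachyury gene, at 355 and 217 TPM in the Stk40-/- libraries and 1025 and 535 TPM in the WT libraries. Per 100 TPM of T, Aplnr was at 0.528 and 0.346 TPM in the Stk40-/- libraries and at 1.98 and 0.983 TPM in the WT libraries. It was thus lower relative to T as well. Per TPM of Mixl1, Aplnr was at 0.910 and 0.440 TPM in the Stk40-/- libraries and 0.823 and 0.776 TPM in the WT libraries, with overlapping groups. Mixl1 was the gene nearest to Aplnr in profile, so this overlap follows from their likeness and is no separate result. Apln per 100 TPM of T was 2.84 and 3.39 TPM in the Stk40-/- libraries and 1.66 and 2.74 TPM in the WT libraries.

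Other members of this list by the smallest unadjusted p were Fst, Fgf8, Evx1 and Msgn1. Fst, an activin antagonist gene, had 40.3 and 35.9 TPM in the Stk40-/- libraries and 119.6 and 82.3 TPM in the WT libraries, and the growth factor gene Fgf8 had 51.8 and 42.3 TPM against 97.8 and 82.6 TPM in WT. Evx1, a homeobox gene of the posterior streak, had 0.650 and 0.0558 TPM in the Stk40-/- libraries and 9.30 and 2.67 TPM in the WT libraries. Msgn1, a presomitic mesoderm factor gene, had 0.975 and 0 TPM in the Stk40-/- libraries and 90.6 and 7.22 TPM in the WT libraries, so WT library 1 set most of its mean. Eomes overlapped between the groups, at 2.82 and 2.51 TPM in Stk40-/- and 3.91 and 2.37 TPM in WT libraries. Mesp1, a factor of early cardiovascular mesoderm, was at 0 in both Stk40-/- libraries and at 0.177 and 0 TPM in the WT libraries. Like Mesp1, the other untested genes of the list averaged under 1 TPM. Of these, Foxc1, Pdgfra and Wnt3a had both Stk40-/- libraries below both WT libraries. Foxc2 had them above, at 0.0683 and 0.0648 TPM against 0 in both WT libraries. Gsc, Lhx1, Mesp2 and Tbx6 overlapped. Over the tested genes of the list the median log2 difference from library 1 to library 2 was -0.87 in WT cells and -0.21 in Stk40-/- cells, the same direction as in Aplnr. The part of the amount of streak-like cells in the Aplnr difference was not tested.

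Genes of the blood and endothelial lineages, which carry the receptor later, differed widely in level. Of 18 haemangioblast, blood and endothelial genes 8 stayed under 1 TPM in every library and 9 were tested, with 3 positive and 6 negative log2 differences, 0 passing and a median of -0.09. Both Stk40-/- libraries lay below both WT libraries in 3 of the 9 (16.6% of all tested genes) and above them in 1 (27.5% of all tested genes). The summed TPM of the list was 42.1 and 46.2 in the Stk40-/- libraries and 50.0 and 53.3 in the WT libraries. Kdr, the VEGF receptor gene that marks haemangioblasts, was at 0.211 and 0.125 TPM in Stk40-/- and 0.133 and 0.0720 TPM in WT libraries, and the endothelial gene Emcn was listed at 0 in all 4. Cdh5, the vascular cadherin gene, was at 0 and 0.0344 TPM in the Stk40-/- libraries and 0.380 and 0.102 TPM in the WT libraries. Gata1, an erythroid factor gene, was at 0.0952 and 0.180 TPM in the Stk40-/- libraries and 0.988 and 1.19 TPM in the WT libraries, without overlap. Erg was separated in the same direction. Tal1 was separated in the other, at 0.0634 and 0.180 TPM in the Stk40-/- libraries and 0 in both WT libraries. Cdh5, Gata1, Erg and Tal1 averaged under 1 TPM and were not tested. The most abundant gene of the list was Eng, a coreceptor gene of endothelium that other cells also transcribe, at 16.5 and 19.0 TPM in the Stk40-/- libraries and 13.1 and 17.8 TPM in the WT libraries. Pecam1, an endothelial adhesion gene, was at 2.73 and 4.88 TPM in the Stk40-/- libraries and 3.13 and 5.01 TPM in the WT libraries, and Cd34 and Lmo2 overlapped as well. Etv2, a factor gene of blood and endothelial progenitors, was at 1.10 and 1.37 TPM in the Stk40-/- libraries and 2.68 and 1.84 TPM in the WT libraries. Gata2, a haematopoietic factor gene, was at 1.08 and 1.43 TPM in the Stk40-/- libraries and 9.20 and 7.36 TPM in the WT libraries (log2 difference -2.04, SE 0.27, limma adjusted p = 0.265). Hhex had both Stk40-/- libraries lower (3.58 and 4.42 TPM, against 6.32 and 5.68 TPM in WT) and Flt1 both higher (5.22 and 5.57 TPM, against 4.66 and 3.23 TPM in WT). Of 13 lateral plate and cardiac genes 5 were tested (median -0.31), and of 12 endoderm genes 4 were tested (median -0.01), with 0 passing in either list.

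Pluripotent cells are known to transcribe Apela, and all 12 listed pluripotency genes were tested. Their log2 differences were positive in 5 and negative in 7, with a median of -0.02 and 0 passing. Both Stk40-/- libraries lay above both WT libraries in 3 of the 12 (27.5% of all tested genes) and below them in 2 (16.6% of all tested genes), close to those shares. Those above were Utf1 (229 and 203 TPM in Stk40-/-, against 125 and 148 TPM in WT libraries), Nanog (219 and 166 TPM, against 113 and 132 TPM in WT) and Klf4. Pou5f1 and Sox2 overlapped. Dppa4 (43.6 and 46.3 TPM in Stk40-/-, against 73.6 and 67.1 TPM in WT) and Zfp42 (12.6 and 13.0 TPM, against 18.0 and 17.5 TPM in WT) were separated in the other direction. Of 12 feeder fibroblast markers 8 were tested, 7 with negative log2 differences (41.4% of all tested genes) and 6 with both Stk40-/- libraries below both WT libraries (16.6% of all tested genes), with a median of -0.86 and 0 passing. Their summed TPM was 298 and 306 in the Stk40-/- libraries and 427 in each WT library, mostly from the smooth muscle gene Tagln (268 and 282 TPM in Stk40-/-, against 385 and 359 TPM in WT). The collagen gene Col1a1 was at 3.96 and 3.74 TPM in the Stk40-/- libraries and 6.98 and 7.29 TPM in the WT libraries, and the smooth muscle actin gene Acta2 at 4.59 and 2.99 TPM in Stk40-/- and 14.3 and 11.7 TPM in WT libraries. Col1a2, Col3a1 and Twist1 also had both Stk40-/- libraries below both WT libraries, as did Postn, which stayed under 1 TPM. Col3a1 and S100a4 passed the filter only through WT libraries, so the negative direction of these genes was set by the filter. The remaining fibroblast genes did not separate the groups. Dcn, which encodes the matrix proteoglycan decorin, was at 1.02 and 0.438 TPM in the Stk40-/- libraries and 1.68 and 0.429 TPM in the WT libraries, Prrx1 overlapped under 1 TPM, and Lum reached at most 0.0791 TPM. Thy1, a surface marker gene, had a positive log2 difference of 0.36 with overlapping groups, and S100a4 was at 0 in 3 libraries and 16.7 TPM in WT library 2. None of the 12 listed genes was at 0 in all libraries. Bulk RNA does not show which cells carried the transcripts of this list. The part of remaining feeder cells in the differences of Apln and Aplnr was not tested.

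Enzymes that cut the precursor peptides or break down the mature ones went both ways. Of 14 listed genes 9 were tested, with 6 positive and 3 negative log2 differences, a median of 0.02 and 0 passing. Furin, a proprotein convertase gene, overlapped, at 16.5 and 23.8 TPM in Stk40-/- and 28.3 and 19.0 TPM in WT libraries. Pcsk1, the gene of another convertase, was at 8.27 and 5.68 TPM in the Stk40-/- libraries and 17.2 and 10.7 TPM in the WT libraries (log2 difference -0.89, SE 0.31, limma adjusted p = 0.446), and -0.57 without WT library 1. The neprilysin gene Mme was at 29.8 and 21.1 TPM in the Stk40-/- libraries and 24.5 and 10.7 TPM in the WT libraries, with overlapping groups. Ece1, which encodes an endothelin-converting enzyme, was at 12.9 and 15.1 TPM in the Stk40-/- and 11.5 and 11.9 TPM in the WT libraries, and the convertase gene Pcsk4 overlapped.

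The shared transducers of G protein-coupled receptors went both ways as well. Of 18 genes of G protein subunits and effectors 17 were tested, with 9 positive and 8 negative log2 differences, a median of 0.01 and 0 passing. The inhibitory subunit genes Gnai2 (196 and 220.0 TPM in Stk40-/-, 204 and 209 TPM in WT libraries) and Gnai3 (152 and 150.4 TPM in Stk40-/-, 157 and 132 TPM in WT) overlapped. Gnai1 was at 11.0 and 12.3 TPM in the Stk40-/- libraries and 18.4 and 13.2 TPM in the WT libraries. By unadjusted p the most different was Gnb2, a beta subunit gene (139.5 and 144 TPM in Stk40-/-, against 171 and 161 TPM in WT), with a log2 difference of -0.22 (SE 0.08, limma adjusted p = 0.442). Gnaq was at 17.9 TPM in both Stk40-/- libraries and 13.7 and 14.2 TPM in the WT libraries, and Gnb1 at 371 and 379 TPM in Stk40-/- and 341 and 349 TPM in WT libraries.

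Of 15 genes of arrestins, receptor kinases and RGS proteins, which switch receptors and their G proteins off, 14 were tested, with 7 in each direction, a median of 0.02 and 0 passing. The beta-arrestin genes Arrb1 (65.8 and 44.5 TPM in Stk40-/-, 33.1 and 55.9 TPM in WT libraries) and Arrb2 (84.8 and 65.3 TPM in Stk40-/-, 58.8 and 74.2 TPM in WT) overlapped. Rgs4 was at 0.533 and 0.448 TPM in the Stk40-/- libraries and 8.65 and 1.26 TPM in the WT libraries, highest in the same library as Aplnr, and its log2 difference of -1.65 (SE 0.79, limma adjusted p = 0.523) was -0.60 without WT library 1. Rgs10 was higher, at 17.2 and 23.5 TPM in the Stk40-/- libraries and 10.4 and 16.2 TPM in the WT libraries, and Rgs16 was at 2.55 and 1.86 TPM in Stk40-/- and 1.23 and 1.34 TPM in WT libraries. The receptor kinase gene Grk2 was at 36.7 and 34.6 TPM in the Stk40-/- libraries and 30.7 and 32.9 TPM in the WT libraries.

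Of 16 genes reported downstream of the receptor in other systems, 10 were tested, with 4 positive and 6 negative log2 differences, a median of -0.06 and 0 passing. The largest difference was that of Mixl1, which is in the streak list as well and was lower (log2 difference -2.29, SE 0.62, limma adjusted p = 0.401). Hdac5 and Mef2d, a histone deacetylase gene and the gene of a MEF2 factor, were both higher. Hdac5 was at 85.4 and 69.4 TPM in the Stk40-/- libraries and 53.7 and 50.9 TPM in the WT libraries (log2 difference 0.55, SE 0.13, limma adjusted p = 0.385), and Mef2d at 39.0 and 44.3 TPM in Stk40-/- and 24.7 and 34.1 TPM in WT libraries. Klf4 was at 3.31 and 2.10 TPM in the Stk40-/- libraries and 1.13 and 2.07 TPM in the WT libraries. Fgf2 was low in 3 libraries, at 0.478 and 0.299 TPM in Stk40-/- and 0.530 TPM in WT library 1, and reached 5.90 TPM in WT library 2. Without that library its log2 difference of -1.23 was -0.14. Sox17 was at 0 in 3 libraries and at 0.239 TPM in WT library 2.

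Other receptors of migrating mesoderm, and their ligands, did not share the direction of Aplnr as a group. Of 18 listed genes 10 were tested, with 5 in each direction, a median of 0.11 and 0 passing. Lpar1, a lysophosphatidic acid receptor gene, was at 3.19 and 4.35 TPM in the Stk40-/- libraries and 8.12 and 8.49 TPM in the WT libraries (log2 difference -0.97, SE 0.23, limma adjusted p = 0.366). Lpar4, which encodes another receptor of that lipid, was higher, at 22.1 and 20.1 TPM in the Stk40-/- libraries and 16.4 and 13.9 TPM in the WT libraries, as was the Wnt receptor gene Fzd7 (25.5 and 25.3 TPM, against 16.3 and 21.0 TPM in WT). Cxcl12, a chemokine gene, was at 21.0 and 35.2 TPM in the Stk40-/- libraries and 7.27 and 16.3 TPM in the WT libraries (log2 difference 1.24, SE 0.45, limma adjusted p = 0.451), and 0.71 without WT library 1. The genes of both receptors of that chemokine were low, with Cxcr4 at 1.03 and 0.568 TPM in Stk40-/- and 0.602 and 2.14 TPM in WT libraries and Ackr3 at 0.317 and 1.33 TPM in Stk40-/- and 0.919 and 0.768 TPM in WT libraries. Of the related angiotensin system, the receptor gene Agtr1a was at 2.02 and 1.59 TPM in the Stk40-/- libraries and 0.552 and 1.25 TPM in the WT libraries (log2 difference 0.58, SE 0.43, limma adjusted p = 0.639), Agtr1b stayed under 1 TPM, and Agtr2 and Agt were listed at 0 in all libraries.

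**Figure D4:**
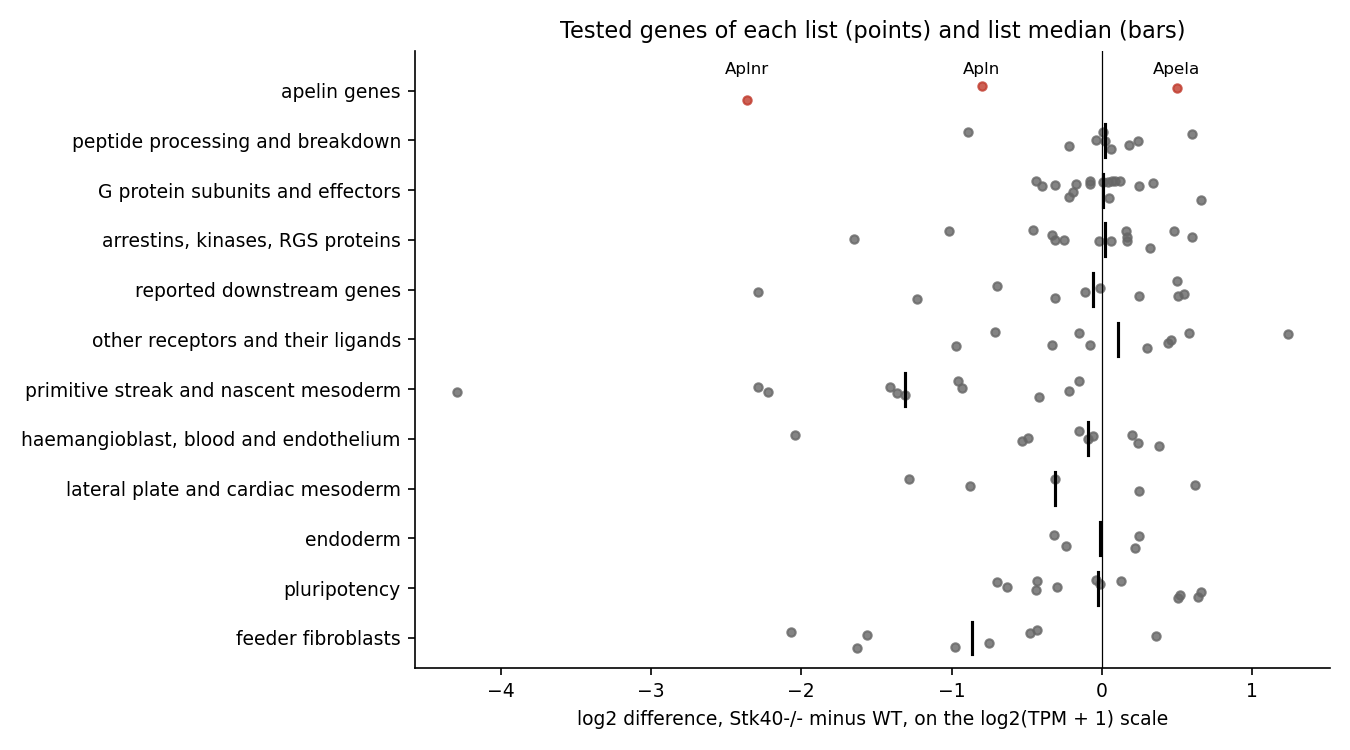
Log2 differences of Stk40-/- minus WT on the log2(TPM + 1) scale (horizontal axis) for the 3 apelin genes, in red, and for the tested genes of each list, in grey, with the list median as a bar. The medians of the signalling lists lie between -0.06 and 0.11, that of the streak list at -1.31 and that of the feeder list at -0.86.

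The chromosomal neighbours of the members went both ways. Within 1 Mb of Apln, 12 protein-coding genes were tested, with 7 positive and 5 negative log2 differences and a median of 0.12, and the 575 tested genes of chromosome X had a median of 0.05. The nearest tested genes on either side of Apln were Ocrl, 59278 bases away, at 23.8 and 20.6 TPM in the Stk40-/- libraries and 16.6 and 16.7 TPM in the WT libraries, and Zdhhc9, with overlapping groups. Within 1 Mb of Aplnr 20 genes were tested, 10 in each direction with a median of -0.02, and 10 of the 1233 tested genes on chromosome 2 had a lower log2 difference than Aplnr. Within 1 Mb of Apela only 4 genes were tested (median 0.16). The closest, Tmem192, was lower, at 42.5 and 44.0 TPM in the Stk40-/- libraries and 61.8 and 51.0 TPM in the WT libraries.

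The directions of the 3 members held in the settings tried. Since the groups of each member did not overlap, only a change of scaling could have reversed them. Across 13 settings, which varied the pseudocount, filter, scaling, variance model, replicate block and libraries, the log2 difference lay between -3.25 and -1.48 for Aplnr, between -1.0 and -0.60 for Apln and between 0.27 and 0.74 for Apela. The adjusted p of limma ran from 0.292 to 0.738 for Aplnr, from 0.309 to 0.738 for Apln and from 0.292 to 0.747 for Apela, so none passed in any setting. As a check of the labels, Stk40 itself was at 3.54 and 3.17 TPM in the Stk40-/- libraries and at 28.9 and 39.9 TPM in the WT libraries, and it too missed the threshold (log2 difference -3.01, SE 0.21, limma adjusted p = 0.139). Jun, which encodes the c-JUN protein named in the study's title, overlapped, at 18.8 and 21.8 TPM in Stk40-/- and 21.1 and 26.0 TPM in WT libraries.

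**Figure D5:**
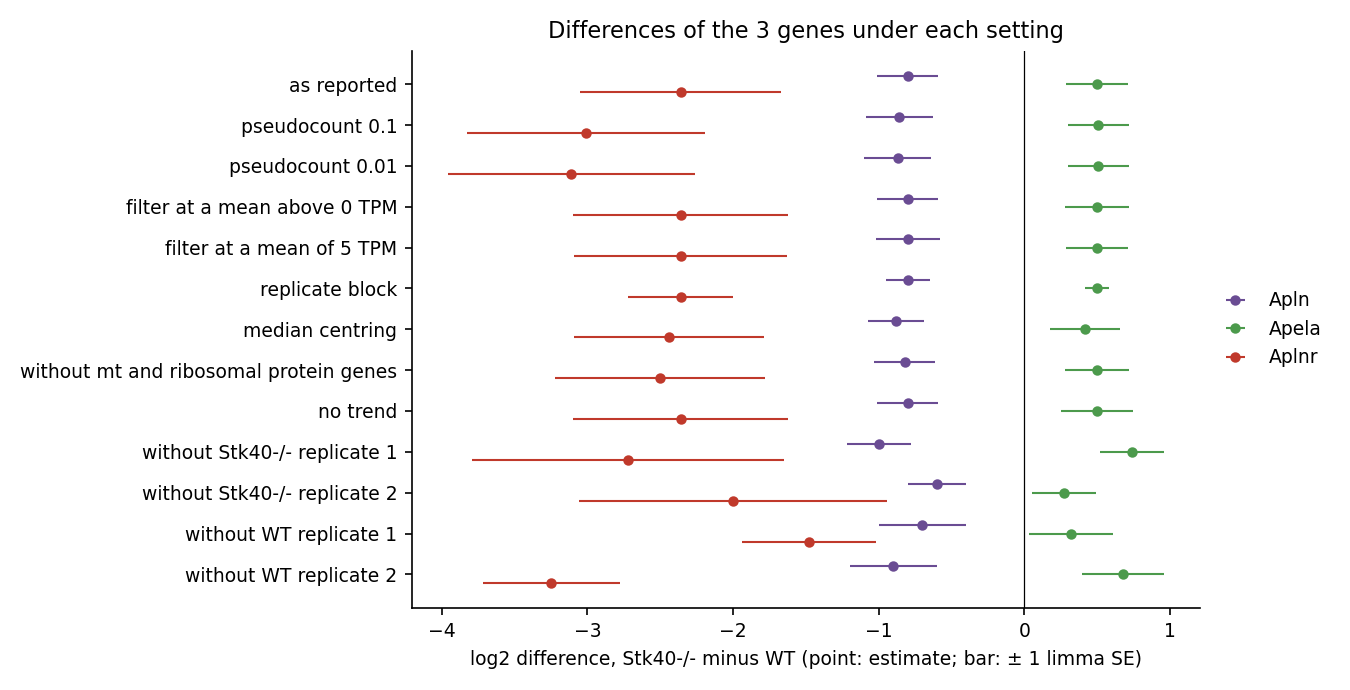
Log2 difference of Stk40-/- minus WT (horizontal axis) for Apln, Apela and Aplnr under each of 13 settings, with bars of 1 limma SE on each side. Aplnr stays between -3.25 and -1.48, Apln between -1.0 and -0.60, and Apela between 0.27 and 0.74.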

How the data were processed

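RNA sequencing values of 2 Stk40-/- and 2 WT libraries were used, grouped by sample title. Per the file headers, the authors deposited TPM for each gene, and every library summed to 1000000. Per the submitters' processing notes the tools were CASAVA 1.7 and Salmon 0.8.2. Those notes also list hg38, a human build, whereas the gene IDs are those of mouse in Ensembl, and the annotation behind them is not known here. Salmon divides reads among similar transcripts, so values of genes with shared exons are less certain. Per the labels, libraries were read on either of 2 instruments with different read lengths, without saying which. There were 0 per-sample columns left unused.

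The 15739 genes averaging 1 TPM or more were compared in log2(TPM + 1) by limma 3.58.1 (R 4.3.3), with an intensity trend, no replicate block and Benjamini-Hochberg adjustment at 0.05. Positions came from GENCODE vM21 (51633 IDs matched without their version) and promoter sequences from RefSeq on GRCm38.p6, which matched Apln and Apela. The members and gene lists were chosen with earlier results of these data known. Named genes were the members, up to 4 genes per described list with the smallest unadjusted p, a fixed set of others, the 3 nearest in profile and neighbours. Further genes of the streak, blood and endothelial, feeder and angiotensin lists were named after their values were seen. In simulated data for this comparison (15739 genes, 200 changed, with the spread fitted here), limma called 29.9% of the 2-fold changes, 56.7% of the 4-fold changes and 74.2% of the 8-fold changes, plus 11 unchanged genes. The simulated noise was independent between genes and used the spread that limma had already evened out across them. These shares may therefore overstate what the real comparison, with 0 genes called, can recover.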

Additional observations from a re-analysis of the deposited data

How the results depend on the processing

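Each of the 3 genes kept its direction, and 0 genes passed in limma in either direction, under all 12 alternatives planned. With groups that did not overlap, most of these alternatives could not have reversed the direction of the 3 genes. When each library in turn was omitted, the log2 difference ranged from -1.0 to -0.60 for Apln, from 0.27 to 0.74 for Apela and from -3.25 to -1.48 for Aplnr, the difference in the Apela share of ligand TPM from 5.28 to 9.90 percentage points, and the difference in the log2 ratio of Apela to Apln from 0.916 to 1.84. A library alone in its group is there assumed to vary like the other group. With a pseudocount of 0.1 the log2 difference of Aplnr was -3.01 and with 0.01 it was -3.11. Among 44 other named genes, 510 of 516 recomputed values kept their direction. The exceptions arose when 1 library was omitted. Over such fits Pcsk4 ranged from -0.14 to 0.50, Furin from -0.49 to 0.06, Eomes from -0.42 to 0.12, Eng from 0.00 to 0.41 and Cxcr4 from -0.81 to 0.16, and the cause was not tested. Deviations of same-numbered libraries from their group means correlated at 0.0893 over 15739 tested genes, and no label ties the numbers to a shared culture or batch, so they were not used as pairs. Whether they mark a shared batch is not known. With the replicate block the log2 difference was -2.36 for Aplnr, -0.80 for Apln and 0.50 for Apela, with smaller standard errors (0.36, 0.15 and 0.08) and adjusted p from 0.292 to 0.309, and 2118 genes had an unadjusted p under 0.05, against 1730 without the block. The block changed no call. TPM keep no depth, so the precision of the low Aplnr values in Stk40-/- cells is unknown.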

Other observations

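The replicates of the 3 genes moved in parallel across genotypes. Library 2 was below library 1 in both Stk40-/- and WT cells for Aplnr (log2 differences of -0.72 and -1.77) and Apln (-0.41 and -0.21), and above it in both for Apela (0.47 and 0.36). Over 15116 tested genes with replicate differences other than 0, the direction was shared by both genotypes in 58.1%. Among 536 genes with a replicate difference of at least 1 on the log2 scale in both genotypes, it was shared in 59.3%. An extreme case was Olfr1033, the only tested protein-coding gene within 1 Mb of Aplnr on its higher-coordinate side, at 7.24 and 0.271 TPM in Stk40-/- libraries 1 and 2 and at 7.08 and 0.220 TPM in WT libraries 1 and 2. Whether library number marks the instrument or read length is not given.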
